A study of Homo sapiens with 4 samples.

Results

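SAF-A peaks were examined in the centromeric alpha-satellite arrays of the 22 human autosomes, in 2 libraries of mitotic and 2 libraries of asynchronous RPE1 cells. A peak was a member when its summit lay inside one of 22 ranges of the hs1 assembly, which together span 64.5 Mb. Position alone chose the members, although the ranges were chosen with earlier results of these data known. There were 2992 such peaks among 371353 listed peaks. The mitotic libraries held 806 (replicate 3) and 656 (replicate 4), and the asynchronous libraries held 827 (replicate 3) and 703 (replicate 4).

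RPE1 is an immortalised human retinal pigment epithelial line, labelled wild type in all 4 libraries. Mitotic cells are labelled as synchronised in M phase and asynchronous cells as unsynchronised. The labels name no agent or time for the synchronisation. The assay was CUT&Tag, in which an antibody against SAF-A directs a transposase to bound chromatin, on 100000 cells with 1 pg of E. coli DNA added for calibration. Nothing in the labels says that the replicates of a state were grown separately. The p-values therefore reflect the spread between libraries alone, and that spread may be technical.

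Alpha satellite is the tandemly repeated DNA of human centromeres. Its short monomers are arranged into higher-order repeat units that differ between chromosomes, and these units are repeated many times in nearly identical copies. It is transcribed into RNA that stays with the chromosome. SAF-A, also called HNRNPU, binds RNA and scaffold DNA, links chromatin-associated RNA to chromosomes in interphase and is known to be removed from chromosomes during mitosis. The study's title names alpha-satellite RNA and the return of SAF-A in the cell cycle, so the arrays are the places where both are of interest.

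The assembly is that of another cell, and arrays vary in length and sequence between people, so a position on hs1 need not be the same place in RPE1. Short fragments from an array can match many copies, and the labels do not say how such fragments were placed. No hs1 sequence was used, so whether each peak lies on alpha satellite was not analysed here. The ranges are rounded and can include neighbouring DNA. Between 11.9% and 14.5% of member summits per library lay within 100 kb of a range end, where 6.82% of the length of the ranges lies.

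SAF-A peaks were sparser in the arrays than in the rest of the nuclear genome. The arrays held 12.5 and 10.2 peaks per Mb in mitotic replicates 3 and 4, and 12.8 and 10.9 in asynchronous replicates 3 and 4. The rest of the genome, measured to the last peak of each chromosome, held 25.6 and 37.4 in the mitotic and 32.9 and 24.8 in the asynchronous libraries. Array density was below that of the rest in 4 of 4 libraries, at 0.398 times on average (exact two-sided sign-flip permutation p = 0.13, the smallest that 4 libraries allow). The mean log2 ratio of the densities was -1.36, and at a -log10 q of at least 5 it was -0.39. The 1 Mb on either side of each range was sparser still, at 7.82 and 9.14 peaks per Mb in mitotic and 8.86 and 6.55 in asynchronous libraries. Pooled over the 22 ranges, array density lay between those of the neighbouring DNA and the rest of the genome in all 4 libraries. The chromosome 5 range, 2.57 Mb long, gave 27.2% of the array peaks, and 9 of the 22 ranges averaged under 3 peaks per Mb. The pooled order therefore need not hold for single ranges, and it was not recomputed without chromosome 5.

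The peaks were spread very unevenly over chromosomes. Chromosome 5, from 47030001 to 49600000, held 222 and 201 peaks in mitotic replicates 3 and 4, and 206 and 185 in asynchronous replicates 3 and 4, or 79.2 per Mb on average over the libraries. Chromosome 21, from 10900001 to 11300000 and the shortest of the ranges, held 26 and 22 in mitotic and 33 and 25 in asynchronous libraries, or 66.3 per Mb. Much of this 0.4 Mb range lies within 100 kb of a rounded end, where neighbouring DNA may be included. By their means over the libraries, only the ranges of chromosomes 5 and 21 among the 22 exceeded the 30.2 peaks per Mb of the rest of the genome. Chromosome 19, from 25800001 to 29800000, came next with 102 and 92 in mitotic and 121 and 106 in asynchronous libraries, or 26.3 per Mb. It exceeded the rest of the same library in asynchronous replicate 4 alone, at 26.5 against 24.8 per Mb. The mitotic and asynchronous counts overlapped on chromosomes 5 and 21, while both mitotic counts lay below both asynchronous counts on chromosome 19. Mitotic replicate 4 had fewer peaks than mitotic replicate 3 in all 3 ranges.

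Other arrays were nearly empty. Chromosome 9, from 44900001 to 47600000, held 2 and 0 peaks in mitotic and 1 and 0 in asynchronous libraries, or 0.278 per Mb. Chromosome 18, from 15900001 to 20900000, held 2 and 0 in mitotic and 5 and 5 in asynchronous libraries, or 0.600 per Mb. Chromosome 14, from 10100001 to 12700000, held 3 and 2 in mitotic and 1 and 3 in asynchronous libraries, or 0.865 per Mb. In all, 9 of the 22 ranges had under 3 peaks per Mb, and 8 had no region shared by all 4 libraries.

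**Figure D1:**
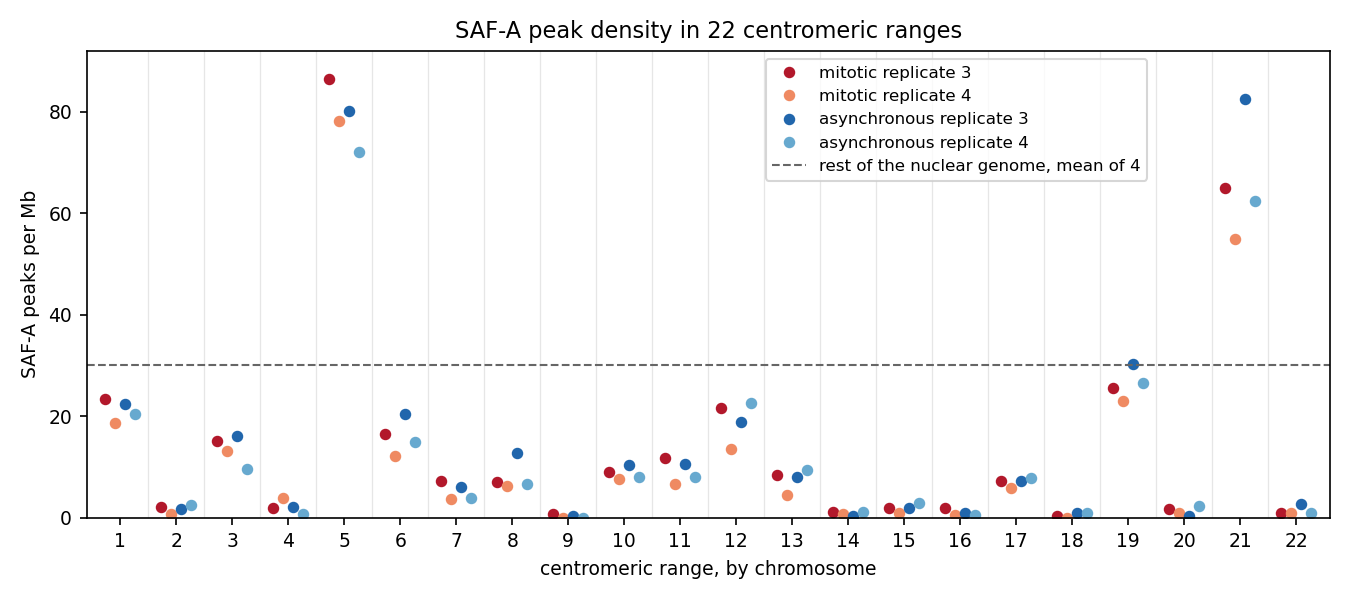
SAF-A peaks per Mb (vertical axis) in each of the 22 centromeric ranges (horizontal axis), with a point for each library and a dashed line at the mean density of the rest of the nuclear genome, 30.2 peaks per Mb. The ranges of chromosomes 5 and 21 stand above the line, and 9 ranges have under 3 peaks per Mb.

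Chromosomes 1, 5 and 19, the 3 ranges with the most peaks, together held most of the array peaks. That they carry near-identical higher-order repeats is from general knowledge, not from the files. They had 429 and 377 array peaks in mitotic replicates 3 and 4, which was 53.2% and 57.5% of each library's members. In asynchronous replicates 3 and 4 they had 428 and 383, or 51.8% and 54.5%. Their ranges make up 17.2% of the length examined. Chromosome 5 alone gave 814 of their 1617 peaks. Since the set holds the 3 largest counts, no test was made of it. Chromosome 21, outside the set, was denser than chromosomes 1 and 19, at 66.3 peaks per Mb against 21.2 and 26.3.

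Arrays can also be grouped by suprachromosomal family, the standard grouping of human alpha satellite by monomer type. The assignment used here is from general knowledge, not from the files. Family 1 (chromosomes 1, 3, 5, 6, 7, 10, 12, 16 and 19) had 22.7 and 18.8 peaks per Mb in mitotic and 22.9 and 19.6 in asynchronous libraries. Family 2 (chromosomes 2, 4, 8, 9, 13, 14, 15, 18, 20, 21 and 22) had 3.13 and 2.60 in mitotic and 3.82 and 3.02 in asynchronous libraries. Family 3 (chromosomes 11 and 17) had 9.44 and 6.20 in mitotic and 8.87 and 7.89 in asynchronous libraries. Chromosomes 1, 5 and 19 gave 1617 of the 2400 peaks of family 1, so its density largely restates theirs. This grouping was chosen after the counts were seen, so no test was made. Single arrays went against it: chromosome 16 of family 1 averaged 1.00 peak per Mb, and chromosome 21 of family 2 averaged 66.3.

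Within an array, peaks lay in clusters. On chromosome 5 the densest 100 kb began 2.4 Mb from the start of the range and held 28 and 27 peaks in mitotic and 27 and 25 in asynchronous libraries. The range is 2.57 Mb long, so this stretch lies near its rounded end. Whether it includes neighbouring DNA was not tested. All 26 bins of 100 kb on that range had a peak in some library. On chromosome 19 the densest 100 kb began 3.2 Mb into the range, with 10 and 13 peaks in mitotic and 19 and 13 in asynchronous libraries, and 4 of 40 bins were empty in all 4. On chromosome 1 the densest 100 kb began 3.4 Mb into the range, with 9 and 8 peaks in mitotic and 9 and 8 in asynchronous libraries, and 4 of 45 bins were empty.

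**Figure D2:**
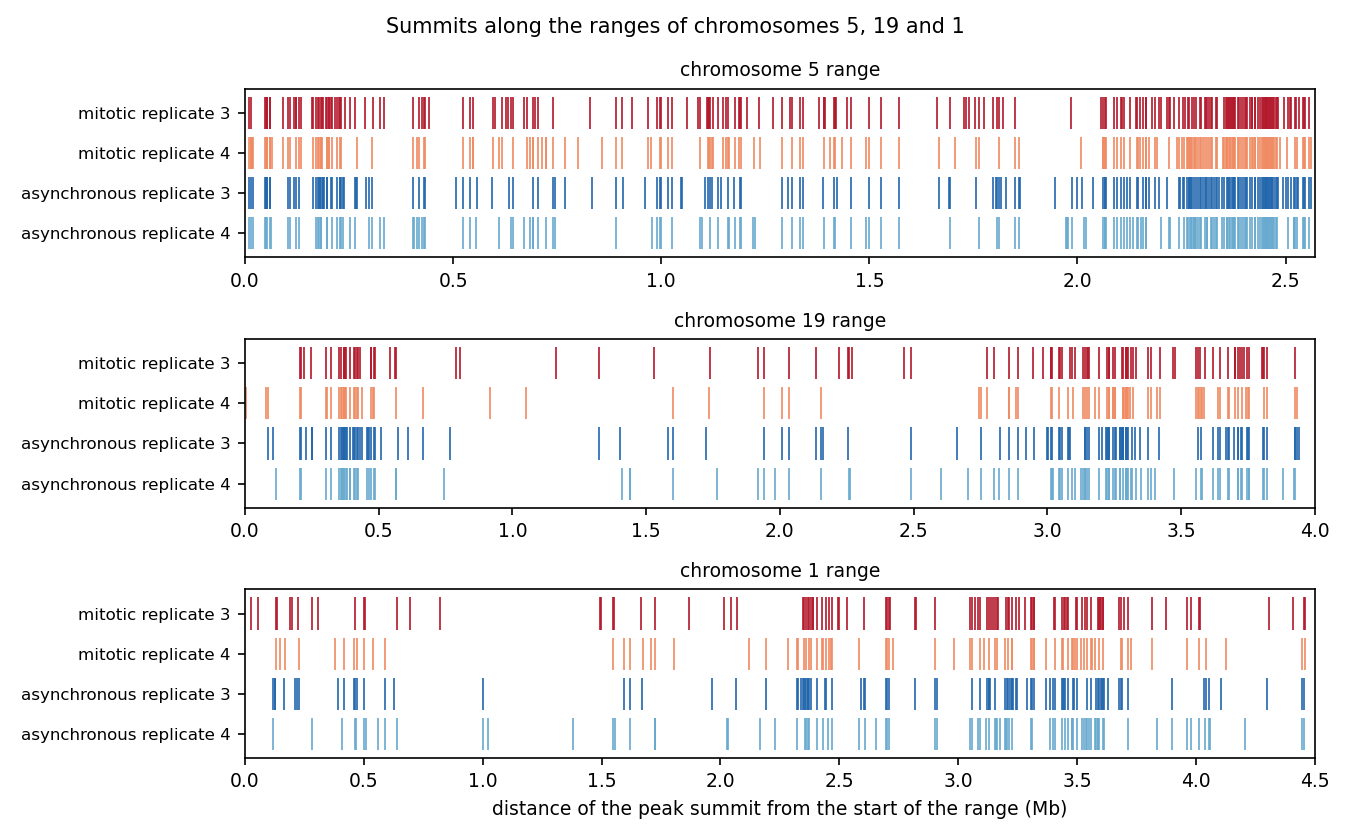
Each vertical line is a peak summit, placed by its distance in Mb from the start of the range on chromosomes 5, 19 and 1, with a row for each library. The clusters recur at the same distances in all 4 libraries, with the densest 100 kb of chromosome 5 starting at 2.4 Mb.

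Some neighbouring array peaks were evenly spaced. Spacing was measured between summits of neighbouring regions called in at least 2 libraries. On chromosome 17, 4 summits between positions 26711642 and 26719776 stood 2720, 2720 and 2694 bp apart. On chromosome 5, 5 summits between 49473745 and 49481903 stood 2047, 2041, 2030 and 2041 bp apart. A further 4 summits there, between 49492440 and 49498556, stood 2039, 2048 and 2029 bp apart. Of 101 pairs of consecutive spacings of up to 5000 bp in the arrays, 9 (8.91%) matched within 30 bp, against 46 of 2606 (1.77%) in the rest of the genome. This measure was chosen after the spacings were seen and has no test, and pairs in the same run share a summit.

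Array peaks stood on a lower local background than other peaks. The local background is the fragment level that the peak caller took around a summit, and the genome background is its lowest value in a list, which stands for depth. That depth was 1.17 and 1.79 fragments in mitotic replicates 3 and 4, and 1.38 and 1.17 in asynchronous replicates 3 and 4. The local background exceeded the genome level at 53.7% and 36.6% of array peaks in mitotic libraries and at 42.4% and 47.4% in asynchronous libraries. Elsewhere it did so at 82.4% and 81.4% of peaks in mitotic and 78.6% and 84.9% in asynchronous libraries. The share was lower in the arrays in 4 of 4 libraries, with a mean difference of -36.8 percentage points (exact sign-flip permutation p = 0.13).

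The typical array peak did not stand apart in height, but the 90th percentile of height was above that elsewhere. The median summit pileup, the number of overlapping fragments, was 12 and 15 for array peaks in mitotic libraries and 12 and 12 in asynchronous libraries. Elsewhere it was 11 and 14 in mitotic and 12 and 12 in asynchronous libraries. The array median was higher in 2 of 4 libraries and equal in the others (exact sign-flip permutation p = 0.5 for the median over the genome background). Under the stricter threshold of a -log10 q of at least 5 the direction turned, to -0.14 log2 units for arrays over the rest. At the 90th percentile the array pileup was 39.5 and 49 in mitotic and 40.4 and 39.8 in asynchronous libraries, against 25 and 35 in mitotic and 28 and 27 in asynchronous libraries elsewhere, higher in 4 of 4 libraries (exact sign-flip permutation p = 0.13). The strongest hundredth of each list, ranked by the authors' q-value, held 9.06% and 8.38% of array peaks in mitotic and 6.89% and 8.11% in asynchronous libraries.

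Pooled over the ranges, array peaks recurred between libraries more often than others. Of array peaks, 37.3% and 46.2% in mitotic and 36.5% and 43.0% in asynchronous libraries lay in a region called in all 4 lists. Elsewhere the shares were 26.6% and 18.1% in mitotic and 20.8% and 27.7% in asynchronous libraries. The share was higher in the arrays in 4 of 4 libraries, by 17.4 percentage points on average (exact sign-flip permutation p = 0.13). At a -log10 q of at least 5 the mean difference was 10.4 points, with arrays higher in 3 of 4 libraries (exact sign-flip permutation p = 0.375). There mitotic replicate 3 turned, at 52.2% of array peaks against 54.2% elsewhere, and mitotic replicate 4 had the largest gap of the 4 libraries, at 60.1% against 29.6%. Merged over the lists, the arrays held 1510 regions, of which 300 (19.9%) were called in all 4 libraries and 793 (52.5%) in a single library. In the rest of the genome 8.31% of regions were called in all 4. Summits of the 300 shared array regions also fell closer together, with a median of 38.5 bp between the outermost of the 4 libraries, against 143 bp elsewhere. Shared array regions were narrower as well, at a median of 470 bp against 761 bp, and the part of width in the summit spread was not tested.

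**Figure D3:**
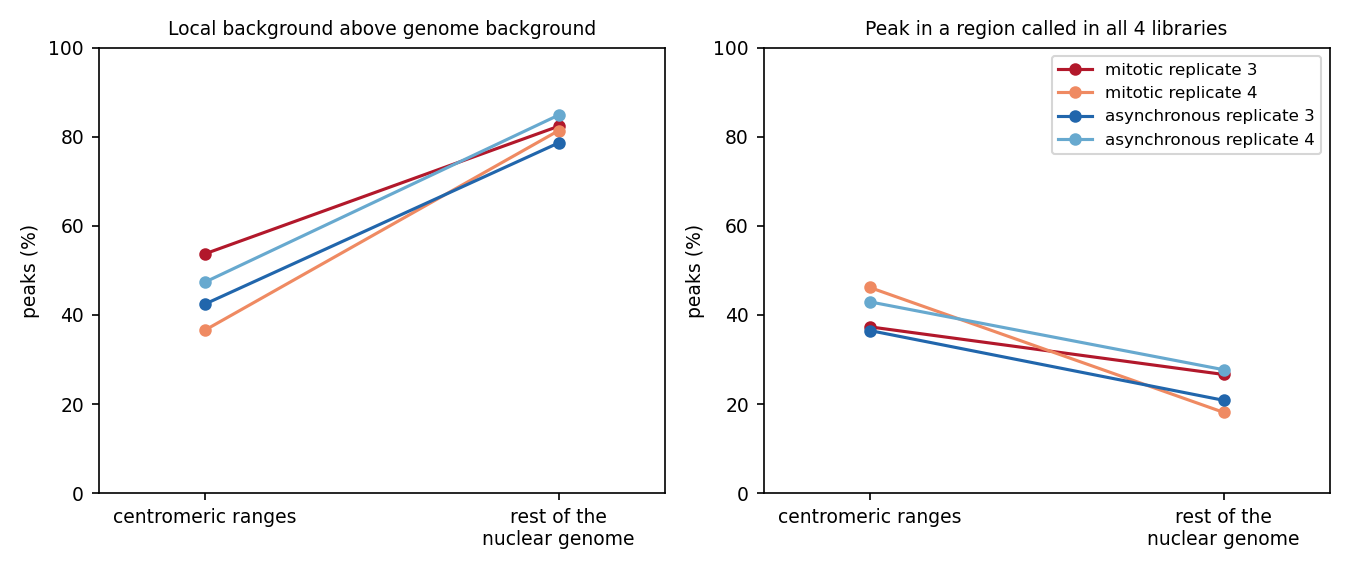
Share of peaks (vertical axis, percent) in the centromeric ranges and in the rest of the nuclear genome, with a line for each library. The left panel gives peaks whose local background exceeded the genome background, and the right panel gives peaks in a region called in all 4 libraries. In the arrays the first share lies between 36.6% and 53.7% and the second between 36.5% and 46.2%.

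The strongest shared array regions stood on chromosomes 5, 6 and 19. The site of highest mean rank (chromosome 5, 48879459 to 48880026) reached 308 and 332 fragments in mitotic and 277 and 268 in asynchronous libraries. Its 4 summits lay within 4 bp of each other. Divided by each library's median over shared regions it stood at 12.7 ± 3.78 times in mitotic and 11.9 ± 1.19 times in asynchronous cells (SD, n = 2 each), so the groups differed by less than the spread within mitotic cells. The second, chromosome 5 from 49433862 to 49434358, reached 343 and 342 fragments in mitotic and 308 and 291 in asynchronous libraries. It stood at 13.8 ± 4.80 times the median in mitotic and 13.1 ± 1.09 times in asynchronous cells (SD, n = 2 each).

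The other 4 named by rank behaved in the same way. Chromosome 6 from 58377247 to 58378152, which lies 77.8 kb from a range end, reached 206 and 225 fragments in mitotic and 204 and 183 in asynchronous libraries. Chromosome 5 from 49570786 to 49571283, only 29.0 kb from a range end, reached 183 and 214 in mitotic and 207 and 191 in asynchronous libraries. These sites near an end may lie on neighbouring DNA, which was not tested. Chromosome 19 from 28992487 to 28993079 reached 159 and 167 in mitotic and 136 and 136 in asynchronous libraries, and chromosome 19 from 28657279 to 28658297 reached 124 and 143 in mitotic and 131 and 125 in asynchronous libraries. Against the shared-region median, the mitotic values of all 6 lay on both sides of the asynchronous values.

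The number of array peaks did not separate mitotic from asynchronous cells. Array peaks made up 1.02% and 0.571% of the nuclear peaks in mitotic replicates 3 and 4, and 0.818% and 0.919% in asynchronous replicates 3 and 4. The means were 0.796% ± 0.318 in mitotic and 0.869% ± 0.0719 in asynchronous cells (SD, n = 2 each; exact two-sided permutation p = 1, where 0.333 is the smallest that 2 against 2 allows). The asynchronous libraries lay between the mitotic ones. Without mitotic replicate 4, the deepest library, the difference turned from -0.0722 to 0.153 percentage points. By covered length the arrays took 0.941% and 0.502% of the bases under nuclear peaks in mitotic and 0.730% and 0.837% in asynchronous libraries (exact permutation p = 1).

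The mitotic replicates differed from each other at the arrays more than the cell states did. Over the 300 shared array regions, the median log2 summit height relative to all shared regions was 0.41 and -0.29 in mitotic replicates 3 and 4, and 0.00 and 0.13 in asynchronous replicates 3 and 4. Over the other 20034 shared regions these medians were 0.00 in all 4 libraries. In fragments, before this scaling, the median was 26.5 and 27 at array regions in mitotic replicates 3 and 4, against 20 and 33 at the others. On the scaled heights, mitotic replicate 3 exceeded mitotic replicate 4 at 286 of 300 array regions (95.3%), against 51.8% of the others. Mitotic replicate 4 was the lowest of the 4 libraries at 71.0% of array regions and at 25.9% of the others. All 14 arrays with shared regions had a higher median in mitotic replicate 3 than in replicate 4, from chromosome 14 with 1 region to chromosome 5 with 113.

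The pattern also held for peaks that stood alone. At 140 shared array regions with a local background of at most 1.3 times the genome level, the medians were -0.15 and -0.84 in mitotic and -0.47 and -0.39 in asynchronous libraries. At the 1739 such regions elsewhere they were -0.86 and -0.87 in mitotic and -0.94 and -0.93 in asynchronous libraries. Mitotic replicate 3 was the higher of the mitotic libraries at 94.3% of these array regions and at 60.0% of those elsewhere. Mitotic replicate 4 had the highest genome background, 1.79 fragments against 1.17 in mitotic replicate 3, and the part of depth in this difference was not tested. In counts of peaks, mitotic replicate 4 had fewer than mitotic replicate 3 in 20 of the 22 arrays and more in 1, chromosome 4, with 21 against 11.

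**Figure D4:**
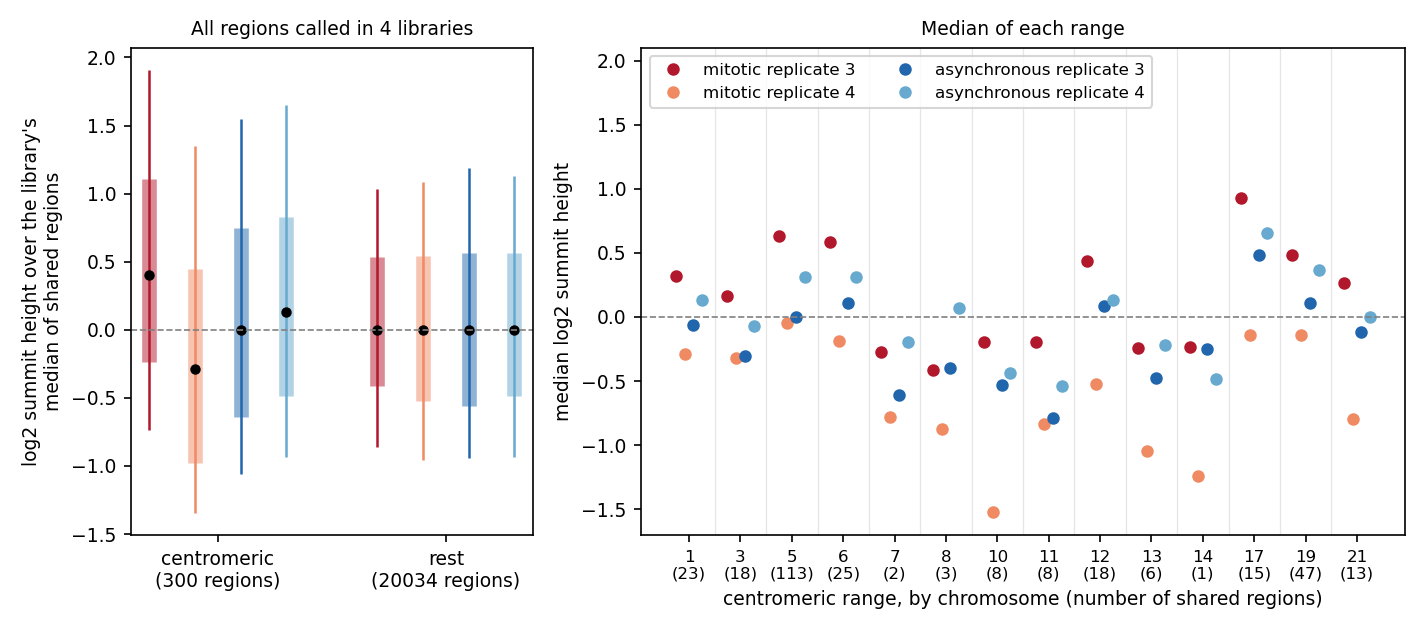
Left, log2 summit height over the library's median of shared regions for centromeric regions and for the rest, with the median (black point), quartiles (thick bar) and 10th to 90th percentile (thin line) of each library in the colours of the key. Right, the median of each centromeric range with a shared region, by library. Mitotic replicate 4 is the lowest and mitotic replicate 3 lies above it in all 14 ranges.

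No array region passed the test of a height difference between mitotic and asynchronous cells. By limma with Benjamini-Hochberg adjustment over all 20334 shared regions, 0 of 300 array regions passed a threshold of 0.05, where 12 regions (0.059%) passed in all. At an unadjusted p under 0.05 there were 16 array regions (5.33%), against 8.90% of all shared regions. That order turned without mitotic replicate 3, at 20% of array regions against 6.55% of all, and without mitotic replicate 4, at 18.3% against 9.14%. The median difference over array regions was -0.03 log2 units, against -0.02 over all, with 136 array regions higher and 164 lower in mitotic cells. Without mitotic replicate 3 the array median was -0.33, with 45 regions higher and 255 lower. Without mitotic replicate 4 it was 0.32, with 250 higher and 50 lower, so the direction over the arrays rests on which mitotic library is kept. Both mitotic values exceeded both asynchronous values at 22 array regions (7.33%), where all shared regions gave 17.1%. Both lay below at 20 array regions (6.67%), where all shared regions gave 20.2%. Both shares lay below those of the genome at large, but the array medians of the mitotic libraries lay on both sides of the asynchronous medians. The low shares therefore do not show a smaller difference between the states at the arrays.

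The array regions nearest to a difference were few and did not pass. The smallest p was on chromosome 13 from 17480165 to 17480954, 19.4 kb from a range end, with 33 and 16 fragments in mitotic and 48 and 31 in asynchronous libraries (-0.91 log2 units, SE 0.27, limma adjusted p = 0.157). Chromosome 1 from 125410415 to 125410707 had 12 and 13 fragments in mitotic and 23 and 20 in asynchronous libraries (-0.95, SE 0.32, limma adjusted p = 0.253). Chromosome 5 from 49479521 to 49480070, in the first evenly spaced run, had 31 and 44 in mitotic and 21 and 19 in asynchronous libraries (0.72, SE 0.26, limma adjusted p = 0.322). At the chromosome 13 site mitotic replicate 3 lay between the asynchronous values, and mitotic replicate 4, the deepest library, was the lowest. At the chromosome 5 site both mitotic values exceeded both asynchronous values. These orders were the same in fragments and after division by each library's median over shared regions. Without mitotic replicate 3 the chromosome 13 region passed (limma adjusted p = 0.00119), and without mitotic replicate 4 a region on chromosome 5 from 47133031 to 47133762 passed (limma adjusted p = 0.0483, higher in mitotic cells by 0.84 log2 units). Those fits called 1 and 12 of all 20334 regions. Each has a single mitotic library, which is assumed to vary like the asynchronous pair, and limma's spread comes from that pair and from pooling over regions.

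Relative to the spike-in, array heights were lower in mitotic cells, as were those of other regions. The spike-in summit reached 65379 and 114250 fragments in mitotic and 39953 and 28009 in asynchronous libraries. Per 1000 fragments of that summit, the median shared array region stood at 0.405 and 0.236 in mitotic and 0.626 and 0.821 in asynchronous libraries. The groups did not overlap, at 0.321 ± 0.119 in mitotic and 0.723 ± 0.138 in asynchronous cells (SD, n = 2 each; exact permutation p = 0.333, the smallest possible), a ratio of 0.443. For the other shared regions the ratio was 0.432. With this scaling limma placed 290 of 300 array regions lower in mitotic cells, where 95.1% of all shared regions passed in that direction. The fall was a shift common to the genome, with a median of -1.23 log2 units over array regions and -1.22 over all, and it rests on 1 spike-in value per library. Every region of a library was divided by that same value, so the limma calls follow from it and add no separate support.

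Windows of 1 Mb gave no difference either. Of 66 windows with most of their bases in an array, 55 had a peak in at least 2 libraries, and by limma 0 of them passed, as did 0 (0%) of 2932 windows in all. At an unadjusted p under 0.05 there were 2 array windows (3.64%), against 6.72% of all. Chromosome 4 from 54000001 to 55000000 had the smallest p, with 5 and 10 summits in mitotic and 6 and 1 in asynchronous libraries, and 61.1 and 85.8 in mitotic against 35.1 and 17.9 in asynchronous libraries of covered bp per Mb of peak sequence (1.22 log2 units, SE 0.51, limma adjusted p = 0.641). Chromosome 10 from 40000001 to 41000000 had 3 and 4 summits in mitotic and 1 and 2 in asynchronous libraries (0.65, SE 0.62, adjusted p = 0.929 by limma). Chromosome 4 from 52000001 to 53000000 had 1 and 1 in mitotic and 0 and 0 in asynchronous libraries (0.66, SE 0.76, adjusted p = 0.936 by limma).

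Among windows lower in mitotic cells, the first was chromosome 6, 58000001 to 59000000, with 40 and 30 summits in mitotic and 51 and 39 in asynchronous libraries (-0.45 log2 units, SE 0.22, limma adjusted p = 0.727). Chromosome 14 from 10000001 to 11000000 had 0 and 0 in mitotic and 1 and 2 in asynchronous libraries (-1.47, SE 0.72, limma adjusted p = 0.727). Chromosome 8 from 44000001 to 45000000 had 7 and 7 in mitotic and 14 and 9 in asynchronous libraries (-0.78, SE 0.42, limma adjusted p = 0.764). Apart from the window on chromosome 6, these windows hold at most 14 peaks in a library. The log2 differences are of covered bp per Mb plus a pseudocount of 10.

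With all 4 libraries, mitotic-only array regions were near their share in the genome, and asynchronous-only array regions were above theirs. Regions with a peak in both mitotic libraries and neither asynchronous library numbered 38 of 1510 (2.52%), where the genome gave 2.8%. Those with the reverse pattern numbered 58 (3.84%), where the genome gave 1.66%. At a -log10 q of at least 5 there were 21 mitotic-only (3.08% of 681 array regions, against 4.24% in the genome) and 20 asynchronous-only (2.94%, against 1.01%). With peaks under 183 bp removed, the smallest width that all lists reach, there were 46 mitotic-only (3.21% of 1434, against 3.09%) and 41 asynchronous-only (2.86%, against 1.47%). The order of the array counts thus turned once widths were matched, while the asynchronous-only share stayed above that of the genome. It fell below with an asynchronous library left out, at 17.4% against 19.2% without replicate 3 and 22.4% against 25.7% without replicate 4. Without mitotic replicate 3 it was 8.17% against 2.56%, and without mitotic replicate 4 it was 6.88% against 5.05%. The median summit of mitotic-only array regions was 11 and 11 fragments in the mitotic libraries, and that of asynchronous-only array regions was 11 and 10 in the asynchronous libraries. Single-state regions elsewhere had 11 and 15 in mitotic and 12 and 11 in asynchronous libraries. Array regions called in all 4 libraries had 26.5 and 27 in mitotic and 25 and 23 in asynchronous libraries. Chromosome 5 held 17 of the mitotic-only and 10 of the asynchronous-only regions, chromosome 1 held 5 and 13, and chromosome 19 held 2 and 12.

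The strongest mitotic-only array region, chromosome 5 from 47044070 to 47044539, reached 47 and 44 fragments and lay 14.1 kb from a range end. The next recurrent region had its summit 860.5 bp away. Asynchronous replicates 3 and 4 each had a summit beside the mitotic-only region, at 0.0149 and 0.015 Mb into the range. A region on chromosome 3 (92731758 to 92732567) had 17 and 19 fragments. Next, a region on chromosome 19 (29221117 to 29221645) had 19 and 16. Apart from the first, these were below the mitotic median of shared array regions. The strongest asynchronous-only array region, chromosome 6 from 58715848 to 58716197, reached 24 and 19 fragments. Chromosome 12 from 34740083 to 34740258 had 16 and 16. Its width of 176 bp was under 183 bp, and not every mitotic list held peaks that narrow. Chromosome 5 from 49376230 to 49376488 had 25 and 17 fragments.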

How the data were processed

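Peak lists of 4 CUT&Tag libraries were used. MACS2, Bowtie2, fastp and bedtools, with build hs1, are named per the submitters' processing notes. Versions, parameters, any control library, and the handling of duplicates, multi-mapping fragments and the spike-in remain not given in the sources used here. The authors deposited 1 narrowPeak list per library, called per sample. The deposited fold enrichment ratio, -log10 p and -log10 q, and the score (10 times -log10 q) are the authors' own values. The smallest -log10 q was just above 1, which is a q-value of 0.1. Library totals were not used here, so depth was taken from the lists.

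Summit pileup and local background were solved from the deposited fold, (pileup + 1) / (background + 1), and the Poisson p. All pileups under 200 came out whole within 0.05, as did all array peaks. Peaks of the 24 nuclear chromosomes sharing at least 1 bp were merged into 242505 regions. Starts were converted to count from 1. Groups were taken from titles and compared by exact permutation, and arrays were compared with the rest by exact sign flips over the 4 libraries. Limma 3.58.1 (R 4.3.3, trended prior, Benjamini-Hochberg) was fitted to all shared regions and all windows, after tests on simulated data. Its p-values pool the spread over regions.

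The named regions were the 6 strongest shared, the 3 strongest of a single state in each direction, the 3 with the smallest p, the 3 windows with the smallest p in each direction, and the 3 densest and 3 sparsest ranges. The ranges, lists and tests were chosen with earlier results of these data known. Alternatives were lists cut to equal length, a threshold of 5 on -log10 q, a common smallest peak width (183 bp), ranges shortened by 100 kb, other scalings, pseudocounts and windows, a reciprocal overlap of 50%, the replicate block and leaving out each library.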

Additional observations from a re-analysis of the deposited data

How the results depend on the processing

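Of 130 recomputed values, 107 kept their direction and side of the threshold, or lay within the spread, 8 turned direction and 15 moved. The median height difference over shared array regions was judged by the spread alone, 0.354 log2 units. Its turns to 0.0429 without asynchronous replicate 4 and to 0.32 without mitotic replicate 4 are therefore not among the 8. Lower density, lower local background and higher recurrence in the arrays kept the direction of their means under every alternative run, although recurrence turned in mitotic replicate 3 at the stricter threshold. The median array height against the rest turned to -0.14 log2 units at a -log10 q of at least 5 and to -0.0378 with equal list lengths (0.06 as reported); the mitotic minus asynchronous local background turned to -0.0378 log2 units at the stricter threshold (0.04 as reported). The cause was not tested. Leaving out a library in turn, the mitotic minus asynchronous share of peaks ran from -0.297 to 0.153 percentage points, the share of covered length from -0.281 to 0.158, the log2 density ratio from -0.61 to 0.24, and the log2 median height from -0.17 to 0.11. The upper ends came without mitotic replicate 4, and the height was 0.09 without asynchronous replicate 4. Regions of a single state fell to 21 mitotic-only and 20 asynchronous-only at the stricter threshold, where fewer peaks are listed. Without a library in turn they ran from 74 to 294 mitotic-only and from 95 to 303 asynchronous-only, since fewer lists then have to match. Their array shares ran from 5.56% to 21.3% (4.62% to 30.7% in the genome) and from 6.88% to 22.4% (2.56% to 25.7%). The asynchronous-only array share was below that of the genome without either asynchronous library, and above it without either mitotic library. Scaling to the spike-in summit gave 290 array calls by limma and a median of -1.23 log2 units. Leaving out a library gave 0 to 1 array calls, among 1 to 12 calls over all shared regions, and array medians from -0.33 to 0.32. Summits within 200 kb of a range end made up 26.3%, a wider margin by construction. With the replicate number as a replicate block, limma called 0 array regions and 0 array windows; over all features it called 14 regions (12 without the block) and 3 windows (0 without). The labels give the numbers no meaning beyond a number, and same-numbered deviations correlated at -0.05 over all shared regions. Sequence around the summits was not run, since no hs1 genome was used.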
